A study of Mus musculus with 2 samples.

Results

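CTCF peaks were described at 10 imprinted genes that lie outside the large imprinted domains: H13, Nnat, Gnas, Grb10, Peg3, Usp29, Mest, Plagl1, Peg10 and Sgce. They were taken from the authors' optimal list, which keeps peaks that repeat between lists by the irreproducible discovery rate. A peak belonged to a gene when its summit lay in the gene or within 20 kb of it (GENCODE M21, mm10). This rule found 39 peaks among the 57220 of the list, in 43 gene-peak pairs, since Peg3 and Usp29 share 3 peaks and Peg10 and Sgce share 1. The 10 genes therefore form 8 loci. The rule itself uses gene names and positions, not signal.

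The data are ChIP-seq with an antibody to CTCF on liver of B6NCrl mice on the day of birth (age 0 days), with 2 replicates in 1 group and no treatment. The tissue was powdered and pooled over several dissections, sex was not collected, and no genotype or transgene is given in the labels. The labels number them as biological replicates but give both 1 biosample and 1 donor identifier, so their spread may be technical only. Whole liver at this age holds hepatocytes, blood-forming and other cells, and the peak lists distinguish neither cell types nor the maternal from the paternal allele.

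An imprinted gene is expressed mainly from the copy of one parent. The copies differ in DNA methylation at an imprinting control region that is marked in the egg or the sperm, often a CpG island at a promoter. CTCF is a zinc finger protein that holds chromatin loops in place with cohesin, and methylation of CpGs inside its motif can block binding. At the H19 control region CTCF is known to bind only the unmethylated maternal copy.

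The sequences under the peaks are shown first, because they show which sites hold a close match to the CTCF motif and which do not. Promoter sites are among both. Each is given 5' to 3' on the strand of the match, read from the GRCm38 reference genome, with the best match to the 14-base CTCF core in capitals and 8 bases on each side in lower case. A match of at most 2 mismatches within 50 bp of the summit was counted as a core.
H13 promoter, chr2:152669382-152669411, plus strand, 1 mismatch: cctcaccgCCACCAGAGGGCGAtcgggcgc
H13 intron, chr2:152696938-152696967, plus strand, 0 mismatches: ccctgcggCCACCAGGTGGCGGgcttgcct
Nnat, beside the Blcap start, chr2:157571701-157571730, minus strand, 2 mismatches: gcaccataCCGCTAGGTGTCACcacagact
Gnas, most upstream promoter, chr2:174284158-174284187, minus strand, 1 mismatch: ctagtgggCCGGCAGGTGGCAGgcgggaac
Gnas, second promoter region, chr2:174297467-174297496, minus strand, 2 mismatches: tttctctgCCGCCAGAGGACGCaggtctca
Gnas intron, chr2:174312302-174312331, plus strand, 1 mismatch: gggcctacCCACCAGAGGTCAGcaaagagc
Grb10 intron, chr11:11973597-11973626, minus strand, 1 mismatch: agggactgCCACCAGGGGTCGGcacagcca
Grb10 island, chr11:12025857-12025886, plus strand, 3 mismatches, not counted as a core: agacttcgCCACACGGGGTCGCtgcgtgcg
Usp29 intron, left, chr7:6918451-6918480, minus strand, 0 mismatches: gcaagctgCCAGTAGAGGGCACccgcgatc
Usp29 intron, middle, chr7:6937306-6937335, minus strand, 0 mismatches: gtcatcggCCAGCAGGTGGCGCacatagga
Usp29 intron, right, chr7:6940927-6940956, plus strand, 0 mismatches: acttgctgCCACCAGATGGCGGtagacacc
Plagl1 intron, chr10:13087389-13087418, plus strand, 1 mismatch: ctcaaaggCCACTAGAGGGTGCacgtgatc
Peg10 and Sgce, chr6:4747190-4747219, minus strand, 3 mismatches, not counted as a core: ttggcccgCCGCTAGGGGCAGCatgggctc

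All 10 genes had at least 1 peak by the rule, as did 80.8% of the 21938 protein-coding genes. The median was 4 peaks per gene, against 3 over all protein-coding genes. H13 and Gnas had 8 each, a number that 10.6% of protein-coding genes reach. Grb10 and Usp29 had 6, Peg3 had 5, Plagl1 had 3, Nnat, Mest and Sgce had 2 and Peg10 had 1. The 8 loci span 0.978 Mb with their flanks and held 39.9 peaks per Mb, against 21.6 over all assembled sequence, much of which is far from genes. The summit farthest from its gene was 14.9 kb outside Peg3 (signal 78.3), and the nearest one beyond the 20 kb limit was 21.4 kb outside Sgce (signal 18.8).

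**Figure D1:**
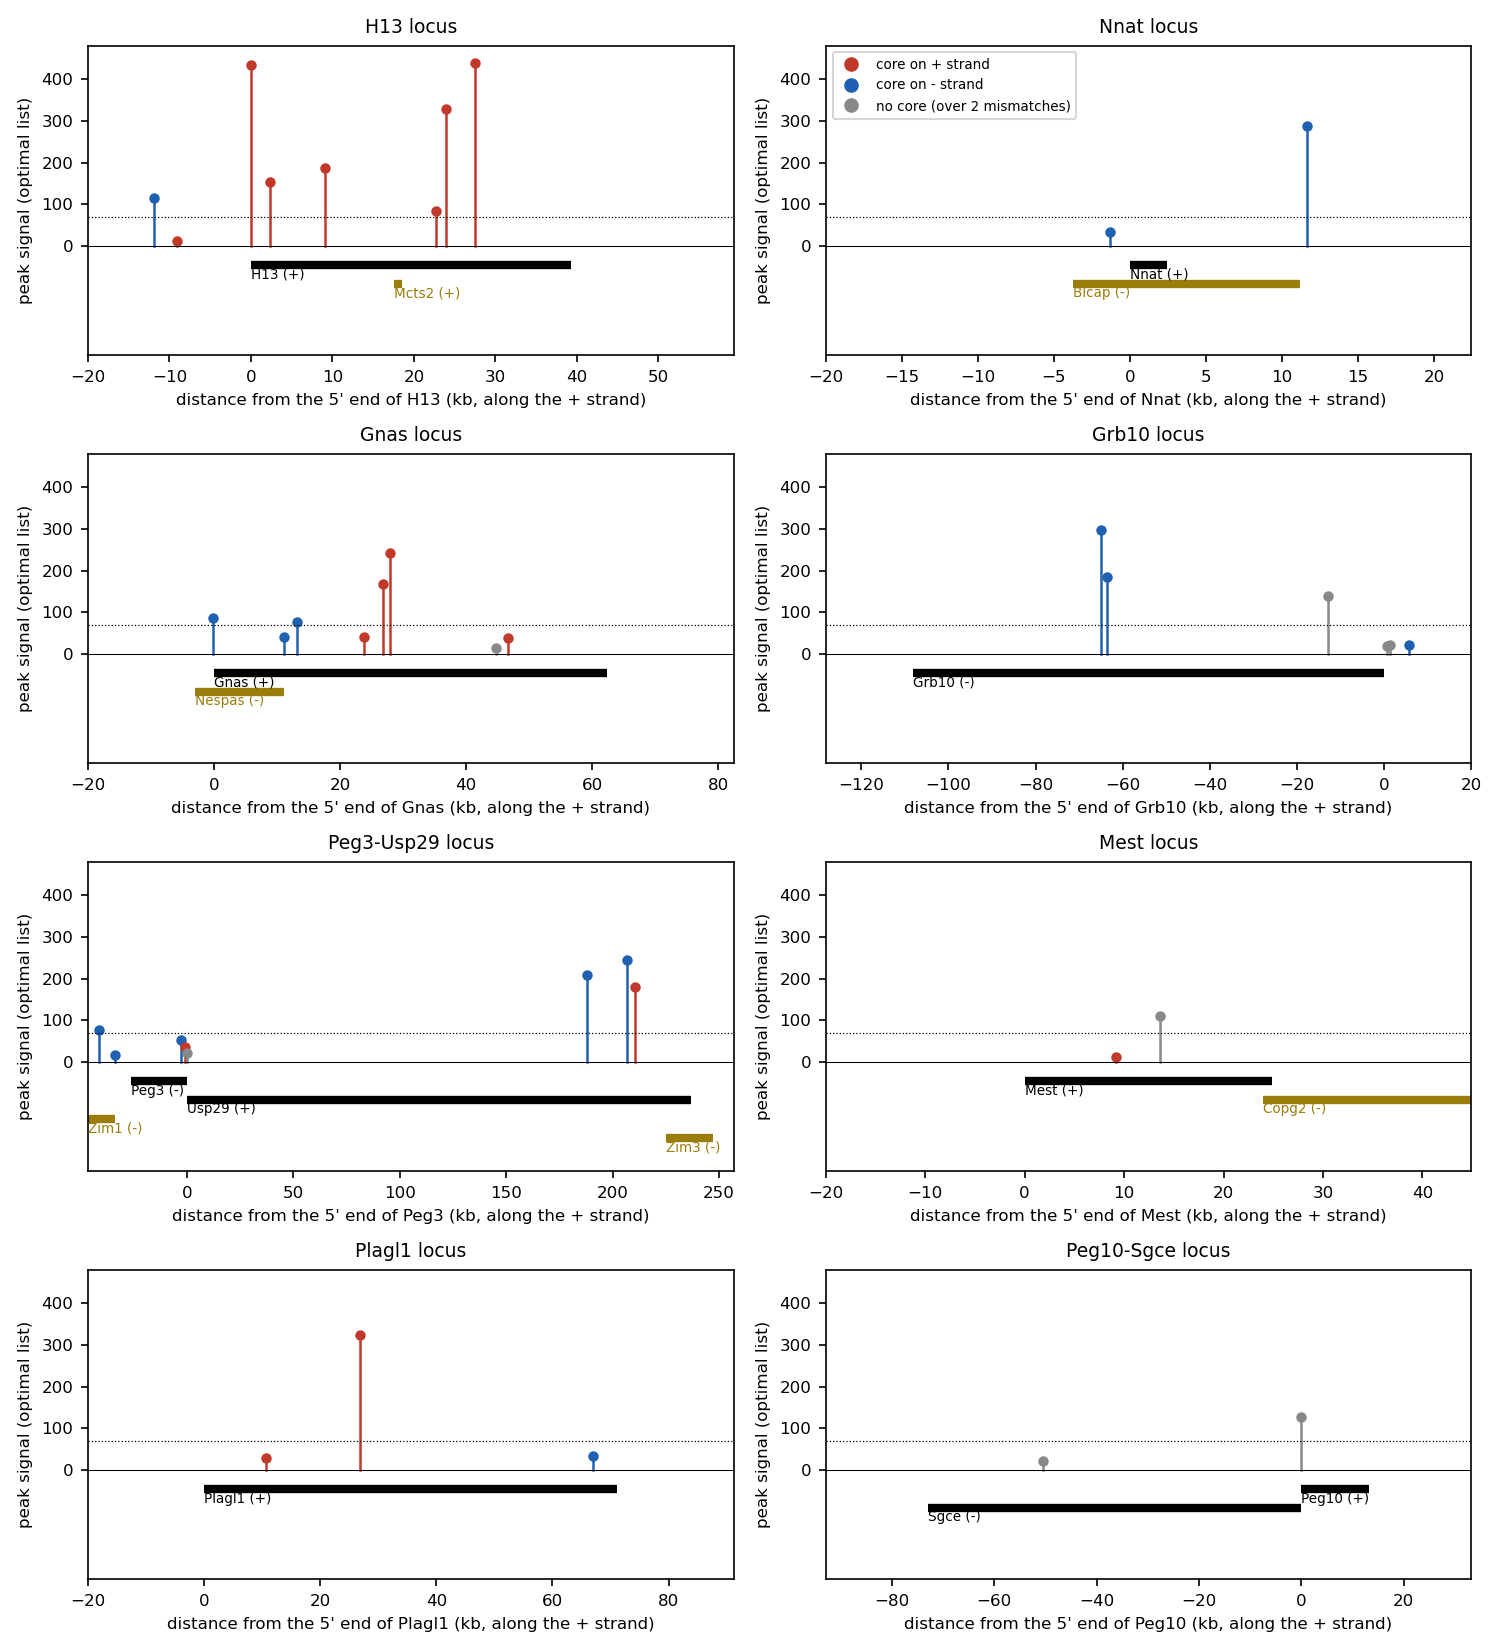
Signal of each CTCF peak (vertical axis, deposited signal of the optimal list, linear) against distance from the 5' end of the first-named gene of each locus (horizontal axis, kb along the plus strand). Red and blue stems carry the core on the plus and the minus strand, grey stems carry none, black bars are the imprinted genes, ochre bars are neighbours, and the dotted line is the median of the list (71.2); 7 of the 8 H13 peaks are red, and the 3 tall peaks in Usp29 stand 188 kb from the weak ones at the start of Peg3.

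The signal, which the authors deposited on a scale that is not stated, ran from 13.3 to 439 at these genes. Its median was 84.5, against 71.2 for all peaks on assembled chromosomes, and 22 of the 39 peaks lay at or above the list's median. The higher median was not seen in both replicates taken alone, with each replicate list cut to its 57220 strongest calls. Replicate 1 gave 36.3 over 41 peaks at these genes, against 36.3 for its cut list. Replicate 2 gave 47.1 over 37 peaks, against 34.7. Within single loci the strongest peak exceeded the weakest by 5.84-fold (Peg10-Sgce) to 32.2-fold (H13). The optimal list keeps peaks that repeat between lists, so a match in each replicate list was largely built in. Summits within 100 bp were present in both replicate lists for 38 of 39 peaks, against 97.1% of all peaks, and 35 of 39 were also in the conservative list, against 87.8% of all.

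H13 encodes signal peptide peptidase, a protease that cuts leftover signal peptides within membranes. One of its introns hosts the retrogene Mcts2, whose promoter island is known to be methylated on the maternal copy. H13 had the strongest peaks of the 10 genes. The top one lay in an intron at chr2:152696812-152697102, with a signal of 439 and rank 766 in the list (212 in replicate 1, 229 in replicate 2). The next was at the H13 promoter, 51 bp upstream of the 5' end, at chr2:152669258-152669561, with 434 and rank 833 (209 and 225). The intronic peak was slightly above the promoter peak in each replicate. A further intronic peak reached 327 at chr2:152693296-152693569 (160 and 171).

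The other H13 peaks were weaker. They had 188 (106 and 81.2), 154 (71.4 and 84.8), 116 (60.3 and 54.3), 84.5 (38.7 and 47.1) and 13.6 (6.47 and 6.96), with replicate 1 named first in each case. The replicates rank the first of these, 9.04 kb inside the gene, and the second, 2.30 kb inside, in opposite order. Mcts2 itself carried no peak within 1 kb of its start. Its 5' end lay 8.53 kb from the nearest H13 peak upstream and 5.08, 6.39 and 9.92 kb from the 3 intronic peaks downstream.

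All 8 H13 peaks carried the core. The 7 from 9.11 kb upstream to 27.5 kb downstream of the 5' end have it on the plus strand, in the direction of H13 transcription, and only the outermost upstream peak has it on the minus strand. H13 thus had 6 of the 16 tandem pairs, meaning neighbouring cores on the same strand, that were counted over the 8 loci. Of 21 neighbouring pairs with a core at both peaks, 16 were tandem (76.2%), 4 divergent and 1 convergent. Over all adjacent peaks with cores at most 200 kb apart, 52.8% were tandem. Without H13 the count was 10 of 14, and pairs within a locus share peaks, so these counts rest on few sites.

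Nnat encodes neuronatin, a small membrane protein, and lies inside an intron of Blcap. It is known to be expressed from the paternal copy in brain and other tissues. Neither of its 2 peaks reached a Nnat start. The strong one, at chr2:157571589-157571839, had a signal of 288 (154 in replicate 1, 135 in replicate 2) and lay 9.19 kb beyond the end of Nnat and 439 bp from the 5' end of Blcap. The weak one lay 1.32 kb upstream of Nnat, in the Blcap intron, with 34.1 (15.7 and 17.3). Both carried the core on the minus strand with 2 mismatches, the strand from which Blcap is transcribed. In the authors' pooled list the strongest call within 1 kb of the Nnat 5' end had a signal of 8.06 and rank 92529, below the weakest peak described here.

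Gnas encodes the stimulatory G protein alpha subunit and is known for promoters with different parental use. The most upstream, for the secretory protein NESP55, is used on the maternal copy. The antisense gene Nespas, the XL promoter and the noncoding exon 1A are used on the paternal copy. Peaks stood near several annotated starts of the locus, all below the 2 strongest peaks. At the most upstream start, 145 bp before the 5' end, chr2:174284116-174284231 had a signal of 86.5 (41.2 in replicate 1, 45.7 in replicate 2). At the 5' end of Nespas, 2 bp away, the peak had 41.5 (19.5 and 19.9). The peak 361 bp from the next Gnas start, at chr2:174297481-174297560, had 77.3 (32.1 and 42.4).

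All 3 of these upstream peaks have the core on the minus strand and lie in CpG islands. The islands measured 1490, 1532 and 601 bp. Downstream, a start cluster between 43.25 and 43.7 kb from the 5' end, made of mostly noncoding transcripts, had no peak within 1 kb. The closest, at 1.06 kb from its last start, was weak with 13.98 (5.24 and 8.54), had no core and was absent from the conservative list. Another peak, 631 bp from an annotated start of the following group of protein-coding transcripts, had 39.3 (19.9 and 18.2).

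The strong Gnas peaks were intronic and outside islands. They lay 28.0 kb and 26.7 kb from the 5' end, with 243 (123 and 119) and 168 (93.5 and 74.3), and another, 23.8 kb in, had 41.5 (22.3 and 18.8). All 3 have the core on the plus strand, so the change from minus to plus cores at Gnas falls in the 10.6 kb between the promoter group and the intronic group. The Nespas peak of 41.5 changes rank between the replicates with both the intronic peak of 41.5 and the peak of 39.3, so it was not separated from either. The intronic peak was above the peak of 39.3 in both replicates.

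Grb10 encodes an adaptor that dampens insulin and IGF1 receptor signalling and restrains fetal growth. Most tissues are known to use the maternal copy from an upstream promoter, while neurons use the paternal copy from promoters near a maternally methylated island. The strongest peaks were deep in the gene. At chr11:11973430-11973725, 65.1 kb from the 5' end, the signal was 296 (162 in replicate 1, 135 in replicate 2), and 1.51 kb away it was 184 (90.2 and 93.2). Both cores lie on the minus strand. A further peak, at chr11:12025797-12025984, had 139 (76.0 and 61.6) within a CpG island of 1313 bp, in a 5' UTR and 453 bp from an annotated start 12.4 kb inside the gene. It had no core, and the better-placed of its 2 equal best matches had 3 mismatches and 2 CpGs.

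Near the most upstream Grb10 start the signal was low. The peak 695 bp before it had 19.8, with 12.9 in replicate 1 and 3.53 in replicate 2, where it ranked 144013. This is the widest disagreement among the 38 matched peaks, at 1.87 on the log2 scale, and the conservative list did not hold it. The others upstream, at 1.32 and 5.77 kb, had 22.4 (10.1 and 11.7) and 22.2 (11.2 and 10.8). The 3 weak peaks swap ranks between replicates and were not separated from each other. All 3 stood below each of the 3 peaks inside the gene in both replicates.

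Peg3, a zinc finger gene, and Usp29, a deubiquitinase gene, start back to back, with 146 bp between their 5' ends. Both are known to be expressed from the paternal copy, and YY1 is known to bind a row of sites in the first intron of Peg3. CTCF signal at this shared start was low. The peak at chr7:6730187-6730470, 102 bp inside Peg3 in its 5' UTR and 249 bp from Usp29, had 22.1 (11.1 in replicate 1, 11.7 in replicate 2) and no core. Next to it in the Peg3 intron were peaks of 36.6 (16.7 and 17.8) at 1.15 kb and 53.3 (29.7 and 23.3) at 3.03 kb. The shared island around the first 2 of these measured 1397 bp.

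The far end of Usp29 looked different. A stretch of 188 kb without a peak separated the shared start from 3 intronic peaks at chr7:6918344-6918558, chr7:6937205-6937440 and chr7:6940828-6941045. Their signals were 209.5 (114 and 94.9), 245 (129 and 115) and 179 (81.2 and 96.9). The first and the last of these rank in opposite order in the replicates. In both replicates each of the 3 was above every peak at Peg3. All 3 held the core without a mismatch, as did 5 of the 39 peaks in all, against 5500 of the 57197 peaks on assembled chromosomes. The middle core faces away from its right neighbour, a divergent pair 3.61 kb apart. On the other side of Peg3, peaks of 78.3 (36.3 and 40.4) and 16.4 (7.48 and 8.09) lay within 1 kb of starts of the neighbouring gene Zim1.

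Mest, which encodes a hydrolase-like protein and is known to be expressed from the paternal copy in fetal tissue, had its main peak upstream of the most downstream group of protein-coding starts. At chr6:30737057-30737197 the signal was 111 (50.9 in replicate 1, 60.3 in replicate 2). The summit lay 910 bp from a start at 14.5 kb from the 5' end, in an island of 725 bp, and its best match had 4 mismatches. The other Mest peak had 13.3, the weakest at these genes. Replicate 1 had it at 9.38, and replicate 2 had no summit within 100 bp. It was also absent from the conservative list. No call lay within 1 kb of the most upstream Mest start in the pooled list or in either replicate list.

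Plagl1, a zinc finger transcription factor gene known for paternal expression and for a role in fetal growth, had 1 strong and 2 weak peaks and none within 1 kb of a start. The strong one, at chr10:13087281-13087541, had 323 (163 in replicate 1, 162 in replicate 2). It stood 3.28 kb before a group of starts 30.2 to 30.5 kb from the 5' end, where most Plagl1 transcripts begin. The weak ones had 30.2 (18.7 and 11.99) and 34.7 (13.03 and 21.2), in opposite order in the replicates. The last of these lay in a coding exon. All 3 carried a core with 1 mismatch.

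Peg10, a gene derived from a retrotransposon and needed in the placenta, and Sgce, the epsilon-sarcoglycan gene, also start back to back and are expressed from the paternal copy. They share a peak at chr6:4747098-4747257 with a signal of 128 (63.1 in replicate 1, 63.6 in replicate 2). Its summit lay in the 5' UTR of Sgce, 27 bp inside the gene and 126 bp from Peg10, in an island of 1898 bp. The only other peak of the locus was in a Sgce intron with 21.9 (7.60 and 14.1) and was not in the conservative list. The 98 bp between the 5' ends, at chr6:4747208-4747305, hold no annotated exon. They are printed on the plus strand because this shared start carries the peak without a core, with a TGCCGC hexamer in capitals.
Peg10 and Sgce gap: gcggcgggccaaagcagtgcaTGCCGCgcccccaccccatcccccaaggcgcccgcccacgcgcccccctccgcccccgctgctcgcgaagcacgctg

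Set side by side, the shared promoter of Peg10 and Sgce had 128 and that of Peg3 and Usp29 had 22.1, and the replicate values of the 2 peaks did not overlap. Both peaks are in CpG islands, and both lack the core. The plot of signals by locus shows this contrast and the position of each locus around the list's median.

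**Figure D2:**
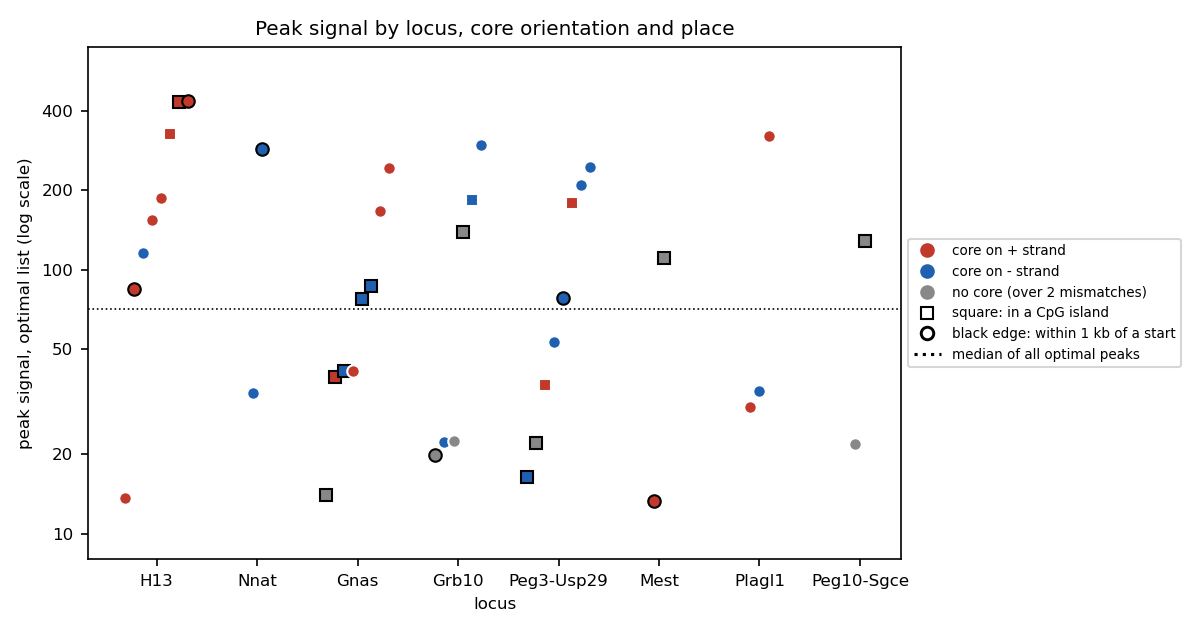
Signal of the 39 peaks (vertical axis, optimal list, log scale) by locus (horizontal axis), ordered by signal within a locus. Colour gives the strand of the core, squares are summits in CpG islands, black edges mark summits within 1 kb of any transcript start, and the dotted line is the median of the list; every locus has at least 1 peak above the line, and the 3 grey squares above it are at Grb10, Mest and Peg10-Sgce.

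A promoter peak, with its summit within 1 kb of any annotated start of the gene, was found at 8 of the 10 genes, against 36.2% of protein-coding genes. The 10 genes have 2 to 16 annotated starts each, and this comparison was not matched for the number of starts. At the 5' end of the gene the count was 7 of 10, against 28.3%. Genes that start back to back share their peak, so by locus the counts were 6 and 5 of 8. Nnat and Plagl1 had none, and Mest had none at its 5' end. These promoter peaks were of very different strength, from 434 at H13 to 22.1 at Peg3 and Usp29, with 139 at Grb10, 128 at Peg10 and Sgce, 111 at Mest and 86.5 at Gnas as the strongest of each gene. With starts of any gene, 17 of 39 peaks (43.6%) were within 1 kb, against 20.6% of all peaks. The rule takes only peaks in or within 20 kb of genes, while all peaks include those far from genes. The comparison is therefore not matched for place.

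CpG islands, here sequence that 200 bp windows cover when they have at least 50% GC and a CpG count of 0.6 or more of that their base composition gives, held 15 of the 39 summits (38.5%). The share was 16.5% over all peaks and 38.4% ± 0.839 (SD, n = 2) in the replicates alone. This SD reflects only the 2 replicates, not the uncertainty of a share of few peaks. No share over the same replicate lists is given. All peaks again include those far from genes, so these shares are not matched for place. Gnas had 5 of these peaks, the Peg3-Usp29 locus 4, H13 and Grb10 2 each, and Mest and Peg10-Sgce 1 each. The median signal was 86.5 in islands and 81.4 outside them, and over all peaks it was 71.7 and 71.2. Some islands were short, with 201 bp at an H13 intron peak and 221 bp at a Grb10 intron peak. A stricter definition, windows of 500 bp with at least 55% GC and a CpG ratio of 0.65, kept 11 of the 39 summits. Its share over all peaks is not given.

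The core was present at 31 of the 39 peaks (79.5%), against 71.2% of all peaks. Strongest peaks of each replicate taken alone gave 73.2% ± 3.50 (SD, n = 2), from 70.7% in replicate 1 and 75.7% in replicate 2. These lie on both sides of the 71.2% of the optimal list, and no share over the same replicate lists is given. The SD reflects only the 2 replicates, not the uncertainty of a share of few peaks. In windows 1 kb away from the summit 1 of 39 held it, against 2.98% over all peaks. The 31 cores were split between 16 on the plus and 15 on the minus strand. Peaks with the core had a median signal of 86.5 and those without it 22.2, compared with 98.8 and 35.7 over all peaks.

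The 8 peaks without a core fell into a strong and a weak group. Grb10 (139), Peg10-Sgce (128) and Mest (111), each in a CpG island and within 1 kb of a start, lay above the 75th percentile of all peaks with as many mismatches, which was 97.3 for 3 mismatches and 57.7 for 4. By definition a fixed share of such peaks lies above that percentile, and these 3 were singled out by signal. Passing it therefore does not mark them as unusual. The other 5 ran from 13.98 to 22.4. Position does not separate the groups, since the weak peaks at Gnas (13.98) and Peg3-Usp29 (22.1) are also in islands within 1 kb of a start, and the weak Grb10 peak of 19.8 is 695 bp from one. The plot of signal by mismatches shows the gap between them.

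**Figure D3:**
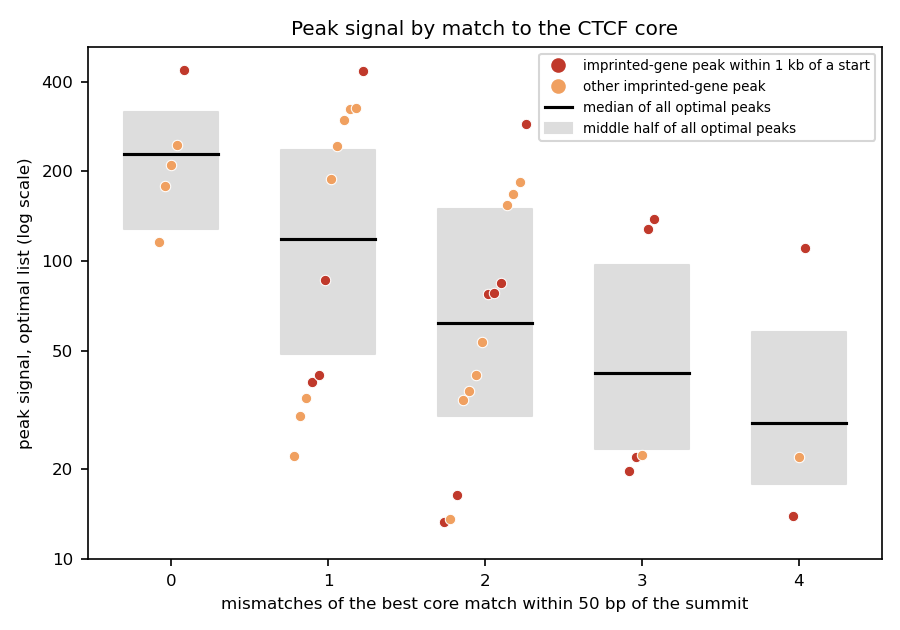
Signal of the 39 peaks (vertical axis, optimal list, log scale) against mismatches of the best core match within 50 bp of the summit (horizontal axis). Black lines are medians and grey boxes the middle 50% of all optimal peaks; dark red points lie within 1 kb of a transcript start, and 3 of them, at 3 and 4 mismatches, stand above the boxes.

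A CpG inside the core was present at 17 of the 31 cores (54.8%), against 33.9% of the cores of all peaks. The comparison was not matched for CpG islands, which held 38.5% of the summits at these genes and 16.5% of all. In the replicates alone the share was 50.9% ± 1.22 (SD, n = 2), where the SD again reflects only the 2 replicates. No share over the same replicate lists is given. The cores at the H13 promoter, the most upstream Gnas promoter and the Nespas start hold 1 CpG each, and the core 361 bp from the next Gnas start holds 2. Among the strongest peaks with a core, those of H13, Nnat, Grb10 and Usp29 hold 1 CpG each, and those of Gnas, Peg3 and Plagl1 hold none. That Peg3 peak, of 78.3, lies near a Zim1 start. The cores near starts at the H13 peak of 84.5 and the Gnas peak of 39.3 also hold none. No methylation was measured here.

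Other short motifs were sought within 150 bp of the summit on both strands. TGCCGC, the hexamer that ZFP57 binds when methylated at imprinting control regions, was found at 4 of 39 peaks (10.3%), against 6.69% of all peaks. These were at the Gnas start near 13.5 kb, in the Peg3 intron at 1.15 kb, at the weak Mest peak and at Peg10-Sgce. AAGATGGC, a YY1 octamer, was found at 2 of 39 (5.13%), against 3.37% of all. These were the Peg3 intron peak at 3.03 kb and the weak Mest peak. These shares rest on 4 and 2 peaks. The summit lay in repeat-masked sequence at 6 of 39 peaks, against 22.4% of all peaks, and 5 of the 6 were at H13.

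The replicates matched closely at strong peaks. Over the 38 matched peaks the log2 ratio of replicate 1 to replicate 2 had a median of -0.07 and an SD of 0.44, and over all 55525 matched peaks 0.06 and 0.49. It passed 0.5 in size at 5 of 38 peaks (13.2%), against 21.3% of all, and these 5 had signals of at most 34.7. Of 104 pairs of peaks within loci, 96 ranked the same way in both replicates and 8 did not. The pairs reuse the same 38 peaks, and signals within a locus differ widely, so they are not independent measures of agreement.

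**Figure D4:**
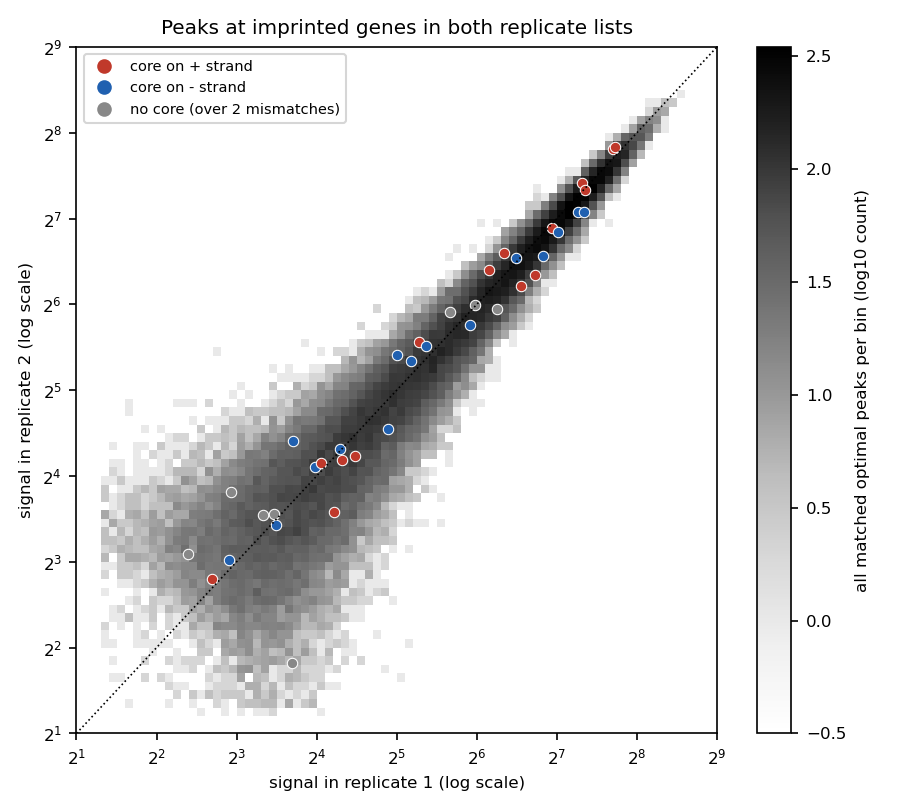
Signal in replicate 1 (horizontal axis) against replicate 2 (vertical axis), both log scales, for the 38 imprinted-gene peaks matched in both lists (coloured points) over all 55525 matched optimal peaks (grey, log10 count per bin). The dotted line marks equal signal. Points lie near it at strong signals, and 5 of the 38, with signals of at most 34.7, differ by over 0.5 on the log2 scale. The point farthest below the line is the Grb10 peak 695 bp before the 5' end.

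Genes in the same clusters were read alongside, from a list of 20 neighbours. By the same rule 18 of them had a peak, but at 4 of these, Mcts2, Blcap, Nespas and Zim3, every peak was shared with the genes above. Of the 17 protein-coding neighbours 16 had a peak and 7 had a promoter peak, beside 80.8% and 36.2% of all protein-coding genes. The strongest neighbour peak, with 488 (252 and 238), lay in Ppp1r9a, a neuronal scaffold gene beside Peg10, near an internal start, and its best match had 4 mismatches. Ddc, the aromatic amino acid decarboxylase gene beside Grb10, had peaks of 436 (231 and 206) and 363 (189 and 173). Asb4, an ankyrin repeat gene farther along the Peg10 cluster, had 8 peaks of up to 339 (184 and 157). Copg2, which overlaps the end of Mest, had a promoter peak of 53.7 (22.0 and 27.2). Zfp264 and Tfpi2 had no peak within 20 kb.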

How the data were processed

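The authors deposited narrowPeak lists on mm10, per the text deposited with the samples: 1 per replicate, 1 from the pooled alignments, and an optimal and a conservative list made from these by the irreproducible discovery rate. For aligner, peak caller and thresholds, the sources used here name none. The signal is the authors' deposited value per peak, compared within a list only. A control experiment that the labels name was not analysed here. The replicate and pooled lists end at 300000 calls, no read counts were used, and the depth of the libraries is unknown, so no interval on a signal is given.

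Summits (start plus deposited offset) were set against GENCODE M21 and the GRCm38 genome, in which all 38 RefSeq promoter sequences of the genes studied were found unchanged at their positions. Motif and CpG island searches, run in Python 3.11.15 with numpy 2.4.6 and pandas 2.3.3, were tested on simulated sequence. With 1 group no test was made. Counts and medians are set beside all 57197 peaks on assembled chromosomes or all protein-coding genes. The genes, lists and motifs were chosen with earlier results of these data known. All peaks of the 10 genes were eligible to be named, with the strongest, those at promoters and those in islands in full.

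Values were recomputed with each replicate alone, its list cut to the 57220 strongest calls, and with the conservative list. Stronger peaks, other windows, promoter distances, mismatches, summit distances and island definitions were also used.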

Additional observations from a re-analysis of the deposited data

How the results depend on the processing

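All 10 genes kept a peak under each alternative run except the gene body alone, where 8 did. The number with a promoter peak lay between 6 and 10, and the conservative list changed no count by over 1.5 times. Keeping only peaks at or above the list's median left 22 peaks, 9 in CpG islands, with a median of 181.6, against 184.7 for all such peaks, and the core at 86.4%. Within gene bodies the median was 119.4, and 11 neighbours had a peak. Windows of 50 kb gave a median of 98.5 and windows of 5 kb a core share of 75.8%. The core share was 43.6% with at most 1 mismatch and 92.3% with at most 3. Each replicate alone, cut to its 57220 strongest calls, gave core shares of 70.7% to 75.7%. The medians were 36.3 to 47.1, each on its own scale, beside 36.3 and 34.7 for the cut lists. The genes' median was thus not above that of the list in replicate 1 or among the stronger peaks. The cause was not tested. In place of 4 optimal peaks the conservative list held 2 others, in Grb10 (20.1) and Peg3 (20.1). No paired analysis was possible because the series has 1 group. Without read counts, weak peaks carry no interval, and the 5 whose replicates differed most, by over 0.5 on the log2 scale, had signals of at most 34.7.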
